A study of Mus musculus with 4 samples.

Results

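The chemokine system of newborn mouse epidermis was described through 57 genes: every gene whose symbol starts with Ccl, Cxcl, Ccr or Cxcr followed by a digit, together with Cx3cl1, Cx3cr1 and Xcl1, out of 24453 gene symbols counted. They comprised 24 CC ligands, 15 ligands of the CXC, CX3C and XC classes and 18 receptors. RNA was sequenced from 2 I53A libraries and 2 CTL libraries of back skin at postnatal day 0. The I53A mice lacked Ring1a (gene Ring1) on both alleles and carried a null allele of Ring1b (gene Rnf2) over the I53A allele, which encodes a catalytically inactive protein. The CTL mice are labelled as controls, and the sources used here give neither their alleles, nor any Cre driver, nor the number of animals behind each library. In both groups a sort for EpCAM, Sca1 and a high level of α6-integrin had taken the cells of the epidermis between hair follicles and enriched for its progenitors. Ring1a and Ring1b are the ubiquitin ligases of Polycomb repressive complex 1, and the comparison addresses what the catalytic activity of that complex does in this tissue; the effects of the inactive allele, of the null Rnf2 allele and of the loss of Ring1 cannot be told apart.

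Chemokines are small secreted proteins that guide leukocytes along concentration gradients. Each binds one or several receptors that span the membrane and signal through inhibitory G proteins, and atypical receptors bind ligands without that signal and remove them. In skin, keratinocytes make ligands such as Ccl27, Ccl20, Cxcl14 and Cxcl10, fibroblasts make Ccl2 and Cxcl12, and the receptors are carried mostly by immune cells such as T cells and monocytes. The libraries are of bulk RNA, so fewer cells of a type and less RNA per cell cannot be told apart in any value that follows.

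Levels are given in CPM, counts scaled to library size. The libraries held 15966412 and 21543385 counts in I53A replicates 1 and 2 and 17010432 and 15505018 counts in CTL replicates 1 and 2, so that 3 counts amounted to between 0.132 and 0.199 CPM. Ring1 stood at 2.54 and 2.91 CPM in I53A and at 24.2 and 33.3 CPM in CTL, 9.50% of the CTL mean (log2 fold change -3.38 ± 0.31, SE; adjusted p = 0.000172). Rnf2 stood at 58.9 and 59.1 CPM in I53A and at 58.5 and 45.8 CPM in CTL (log2 fold change 0.18 ± 0.17, SE; adjusted p = 0.681), and its count does not read the substituted base. I53A replicate 1 was a male library by its reads (Xist 173 counts, Ddx3y 1868 counts) and the other 3 were female, so sex is not balanced between the groups. Nothing in the labels says that the 2 libraries of a group come from separate animals, and the p-values measure the spread between these libraries. Over all 14550 tested genes 826 were higher and 151 lower in I53A (adjusted p under 0.05 by edgeR's quasi-likelihood test), with a median log2 fold change of -0.01.

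Most of the chemokine system was measured at low levels, and 2 of its 28 tested genes passed the test. The mucosal and skin ligand Ccl28 fell in I53A epidermis to 9.10% of the CTL mean, and the macrophage inflammatory protein gene Ccl4 rose to 1.82 CPM in I53A, against 0.126 CPM in CTL. The other 26 of the 28 tested members did not pass the test. The 2 calls, 1 higher and 1 lower, were 3.57% of the tested members in each direction and 7.14% in either direction. Over all tested genes 5.68% were called higher, 1.04% lower and 6.71% in either direction. Members with an unadjusted p under 0.05 numbered 10 of 28 (6 higher, 4 lower), against 18.7% of all tested genes. The median log2 fold change over the tested members was 0.23, but -0.030 among members with at least 1 CPM in 2 libraries and -0.0083 without I53A replicate 1. The tested members are those with enough reads in at least 1 group and are not a sample of all 57.

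The order of the libraries is given for each of the 3 roles, and differences between the roles were not tested. Among the 10 tested CC ligands 6 had both I53A libraries above both CTL libraries, 2 had both below, and 2 overlapped. Among the 8 tested ligands of the other classes 4 lay above and 4 overlapped. Among the 10 tested receptors none lay above, 4 lay below and 6 overlapped. Over all tested genes 24.5% had I53A above CTL and 23.5% below with no overlap. The median log2 fold change was 0.92 for CC ligands, 0.43 for the other ligands and -0.40 for receptors. Summed over the receptors the level was 21.6 and 24.6 CPM in I53A and 38.6 and 36.0 CPM in CTL, and summed over the CC ligands it was 51.1 and 55.0 CPM in I53A and 39.2 and 44.3 CPM in CTL. The receptor sum was lower in both I53A libraries, and Cxcr4 alone made up 23.5% of its I53A mean and 35.2% of its CTL mean. The widest gaps in it were those of Cxcr4 (mean 5.43 CPM in I53A, 13.1 in CTL) and Ccr4 (3.37 and 8.10). The sum therefore cannot show whether the level fell across the receptors, which was not tested. Of the 10 tested receptors 8 had a negative and 2 a positive log2 fold change.

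**Figure D1:**
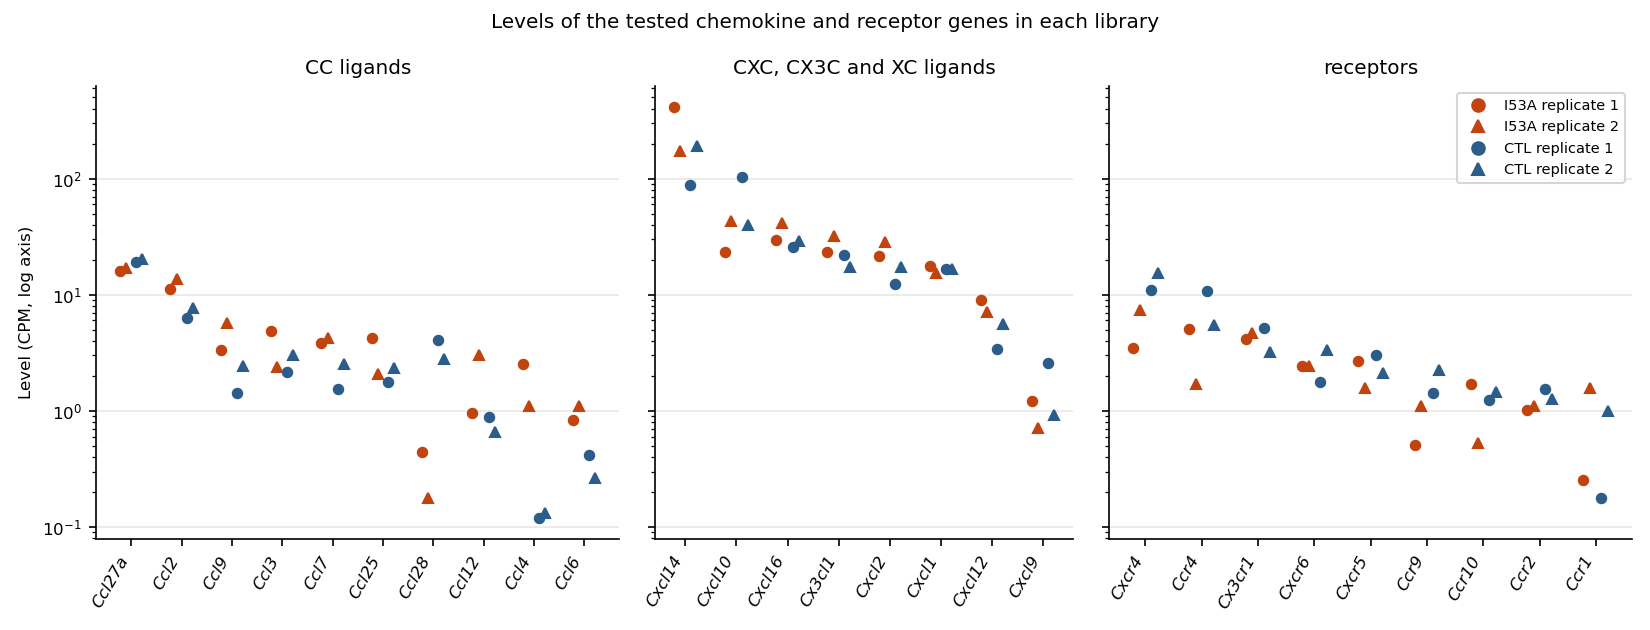
Levels in CPM (log axis) of 27 tested members in each library, by role; orange points are I53A, blue points CTL, circles replicate 1 and triangles replicate 2. Cxcl14 lies highest, at 417 and 174 CPM in I53A and 88.4 and 189 CPM in CTL, while Ccl28 and Ccl4 show the widest gaps between the groups.

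**Figure D2:**
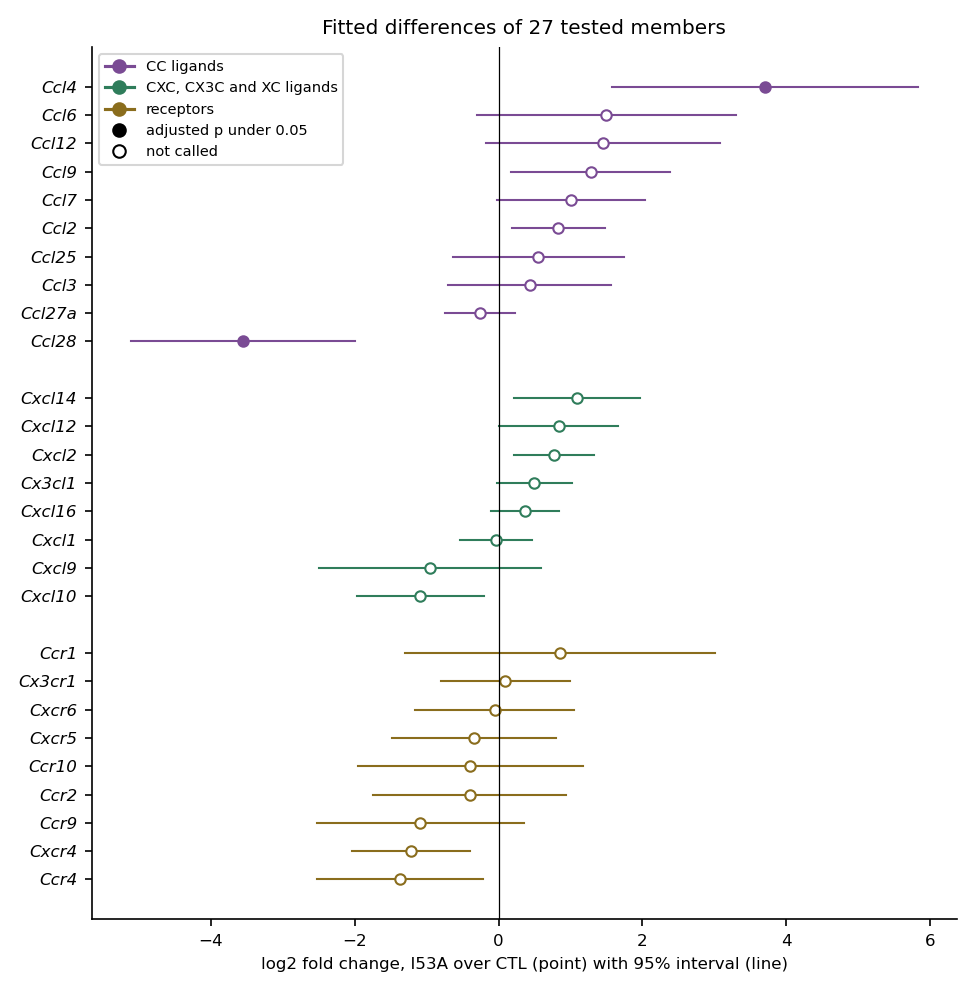
Log2 fold change of I53A over CTL with its 95% interval for 27 tested members, by role; filled points passed an adjusted p under 0.05. Ccl4 lies at 3.70 and Ccl28 at -3.55, and the receptors reach from Ccr4 at -1.37 to Ccr1 at 0.85.

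Per kilobase of transcript, the scale on which genes can be set beside each other, Cxcl14 led in both groups, at 162 CPM per kb in I53A and 75.9 CPM per kb in CTL. Cxcl10 came next at 24.8 CPM per kb in I53A and 53 in CTL, then Ccl27a at 19.5 in I53A and 23.4 in CTL and Cxcl1 at 17.3 in I53A and 17.6 in CTL. The fifth place was held by Ccl2 in I53A (15.2 CPM per kb) and by Cxcl16 in CTL (10.2 CPM per kb). Ccl28 took rank 37 of the members in I53A and rank 17 in CTL. In I53A the ranges of Cxcl10 and Ccl27a overlapped (17.4 to 32.2 and 18.9 to 20.2 CPM per kb), as did those of Cxcl1 and Ccl2. In CTL the ranges of Cxcl14 and Cxcl10 overlapped (48.4 to 103 and 29.5 to 76.4 CPM per kb), while Cxcl10, Ccl27a, Cxcl1 and Cxcl16 followed each other without overlap. Cxcl14 alone accounted for 56.9% of the members' summed mean CPM in I53A and 37.0% in CTL.

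Ccl28 and Ccl27a are the ligands of Ccr10, the receptor of skin-homing T cells. Ccl28 lies on chromosome 13 from 119623819 to 119654359 on the plus strand of GRCm38 (mm10). It had 7 and 4 counts in I53A replicates 1 and 2 and 68 and 42 counts in CTL replicates 1 and 2, which is 0.445 and 0.176 CPM in I53A and 4.05 and 2.78 CPM in CTL. Both I53A libraries lay far below both CTL libraries. The mean was 0.311 ± 0.190 CPM in I53A and 3.42 ± 0.894 CPM in CTL (SD, n = 2 each), a log2 fold change of -3.55 ± 0.70 (SE, 95% interval -5.11 to -1.99, adjusted p = 0.0120). The call did not hold without CTL replicate 1 (adjusted p = 0.150) or without CTL replicate 2 (adjusted p = 0.0635), while the fold change stayed between -4.23 and -2.93 under all 14 alternatives. The window of 250 bases before to 50 after its start site, from RefSeq on GRCm38.p6 at chr13:119623569-119623868 on the plus strand, is shown because Ccl28 is the member that fell; it holds 4 CpG and none of the motifs searched, which would stand in capitals.
Ccl28: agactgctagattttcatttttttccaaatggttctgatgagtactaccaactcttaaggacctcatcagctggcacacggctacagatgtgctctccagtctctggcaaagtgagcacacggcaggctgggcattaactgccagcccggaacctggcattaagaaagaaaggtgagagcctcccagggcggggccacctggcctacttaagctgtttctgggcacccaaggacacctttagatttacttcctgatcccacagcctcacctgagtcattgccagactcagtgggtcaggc

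The partners of Ccl28 did not pass the test. Ccl27a, the ligand made by keratinocytes, stood at 15.9 and 17.0 CPM in I53A and at 19.0 and 20.4 CPM in CTL. Both I53A libraries were slightly lower, and its log2 fold change of -0.26 ± 0.22 (SE, adjusted p = 0.623) had a 95% interval of -0.74 to 0.23, within a 2-fold change. The receptor Ccr10 stood at 1.72 and 0.529 CPM in I53A and at 1.25 and 1.46 CPM in CTL, with I53A libraries on both sides of CTL (log2 fold change -0.39 ± 0.70, SE; adjusted p = 0.847). Ccl27b, a near-identical copy of Ccl27a, had 0 counts in every library, and reads of the pair could have been split or dropped in counting. Ccr3, the second receptor of Ccl28 and that of the eosinophil attractants Ccl11 and Ccl24, had 9 counts in I53A replicate 2, 1 count in CTL replicate 1 and none elsewhere.

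Ccl4 and Ccl3 are neighbouring genes for macrophage inflammatory proteins, which attract monocytes and T cells. Ccl4 lies on chromosome 11 from 83662584 to 83664683 on the plus strand. It had 40 and 25 counts in I53A replicates 1 and 2 and 2 counts in each CTL library, or 2.54 and 1.10 CPM in I53A and 0.119 and 0.133 CPM in CTL. The I53A libraries were well above the CTL libraries, which lay below the level of 3 counts. The mean was 1.82 ± 1.02 CPM in I53A and 0.126 ± 0.00953 CPM in CTL (SD, n = 2 each), and the log2 fold change was 3.70 ± 0.97 (SE, adjusted p = 0.0423). The ratio of pooled counts, scaled to library size, was 13.5 with a 95% interval of 5.02 to 51.0, which covers counting error only. The call was lost with limma-voom (adjusted p = 0.141), without CTL replicate 1 (0.377), without CTL replicate 2 (0.356) and without I53A replicate 1 (0.0818).

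Ccl3 did not pass the test. It stood at 4.90 and 2.38 CPM in I53A and at 2.14 and 3.05 CPM in CTL, and the groups overlapped (log2 fold change 0.43 ± 0.51, SE; adjusted p = 0.743). Ccl5, a related ligand, had 6 and 5 counts in I53A and 2 and 8 in CTL and was not tested. Ccr1, which binds Ccl3 and Ccl5, stood at 0.254 and 1.59 CPM in I53A and at 0.179 and 0.994 CPM in CTL, high in replicate 2 of both groups (adjusted p = 0.730).

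The monocyte attractants Ccl2, Ccl7 and Ccl12, which lie together on chromosome 11 and act through Ccr2, were all higher in both I53A libraries without passing the test. Ccl2 stood at 11.3 and 13.5 CPM in I53A and at 6.31 and 7.75 CPM in CTL (log2 fold change 0.83 ± 0.29, SE; adjusted p = 0.142). Ccl7 stood at 3.82 and 4.23 CPM in I53A and at 1.55 and 2.52 CPM in CTL (log2 fold change 1.01 ± 0.46, SE; adjusted p = 0.279). Ccl12 stood at 0.954 and 3.04 CPM in I53A and at 0.893 and 0.663 CPM in CTL, so that I53A replicate 2 carried most of its difference (log2 fold change 1.45 ± 0.73, SE; adjusted p = 0.338). Ccr2 stood at 1.02 and 1.10 CPM in I53A and at 1.55 and 1.26 CPM in CTL, lower in both I53A libraries (log2 fold change -0.40 ± 0.60, SE; adjusted p = 0.807).

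Ccl9 and Ccl6, ligands of Ccr1 in the same chromosome 11 cluster, were ordered likewise. Ccl9 stood at 3.37 and 5.69 CPM in I53A and at 1.43 and 2.45 CPM in CTL (log2 fold change 1.28 ± 0.50, SE; adjusted p = 0.188). Ccl6 stood at 0.827 and 1.10 CPM in I53A and at 0.417 and 0.265 CPM in CTL (log2 fold change 1.5 ± 0.81, SE; adjusted p = 0.380). Of the 14 members on chromosome 11, 9 were tested, 8 of them with a positive and 1 with a negative log2 fold change. Of these 1 passed the test. The 14 are not all of the cluster, whose genes lie between bases 82035571 and 83664683. Cxcl16, with a positive value, starts at 70453983, Ccr7, not tested, at 99144196 and Ccr10, with the negative value, at 101172997. A rise of the cluster as a whole was not tested.

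Markers of immune and stromal cells were read beside these ligands. The 13 Langerhans cell and macrophage markers summed to 357 and 649 CPM in I53A and 343 and 547 CPM in CTL, higher in replicate 2 of both groups. None of the 12 tested was called (3 higher at an unadjusted p under 0.05, 1 higher by DESeq2, none by limma-voom). Ptprc, the common leukocyte antigen, had the smallest p of them (adjusted p = 0.0677). It stood at 16.9 and 27.0 CPM in I53A and at 10.8 and 11.6 CPM in CTL. Cd74, the most abundant of the list, had a log2 fold change of -0.0037 (adjusted p = 0.998). It stood at 108 and 276 CPM in I53A and at 120 and 267 CPM in CTL. Of the 12 tested, 5 had both I53A libraries above both CTL libraries and none had both below, against 24.5% and 23.5% of all tested genes. Cd207, the defining Langerhans cell gene, had 11 counts in I53A replicate 2 and 0 in the other 3 libraries. The 12 fibroblast markers summed to 4186 and 4548 CPM in I53A and 3388 and 3571 CPM in CTL. Of them 2, Fn1 and Dcn, rose, where 5.68% of all tested genes were called higher. Both I53A libraries lay above both CTL libraries for 8 of the 12, against 24.5% of all tested genes. Postn, the most abundant fibroblast marker, overlapped, with a log2 fold change of -0.19 (adjusted p = 0.656). The part of such cells in the levels of Ccl4, Ccl2, Ccl7, Ccl9, Ccl12 and Ccl6 was not tested.

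Cxcl14, an epithelial ligand present in resting skin, was the most abundant member, and its libraries disagreed within each group. It stood at 417 and 174 CPM in I53A, from 6551 and 3940 counts, and at 88.4 and 189 CPM in CTL, from 1485 and 2852 counts. I53A replicate 1 was above the other 3 libraries, while I53A replicate 2 lay below CTL replicate 2. The mean was 295 ± 172 CPM in I53A and 139 ± 71.1 CPM in CTL (SD, n = 2 each; log2 fold change 1.09 ± 0.39, SE; adjusted p = 0.157). Without I53A replicate 2 the adjusted p was 0.000541, and without I53A replicate 1 the log2 fold change was 0.33 (adjusted p = 0.527). It was 0.64 without CTL replicate 1 (adjusted p = 0.687) and 1.74 without CTL replicate 2 (adjusted p = 0.114).

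The Cxcl14 gene spans bases 56288643 to 56296551 of chromosome 13, on the minus strand. Its RefSeq window on GRCm38.p6, at chr13:56296502-56296801 on the minus strand, is shown because it is the member of highest level. It is rich in CpG, with 22 CpG, and the capitals mark a match to the core of the interferon-stimulated response element (GAAANNGAAA, searched on both strands) at bases 79 to 88.
Cxcl14: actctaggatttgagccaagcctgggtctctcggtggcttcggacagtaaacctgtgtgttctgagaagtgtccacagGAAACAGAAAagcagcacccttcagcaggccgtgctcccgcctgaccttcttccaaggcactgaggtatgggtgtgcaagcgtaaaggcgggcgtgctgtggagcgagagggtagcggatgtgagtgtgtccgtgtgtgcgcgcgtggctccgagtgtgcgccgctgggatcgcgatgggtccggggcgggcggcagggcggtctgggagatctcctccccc

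Cxcl10 and Cxcl9 are ligands induced by interferon gamma that act through Cxcr3 on activated T cells. Cxcl10 stood at 23.5 and 43.5 CPM in I53A and at 103 and 40.0 CPM in CTL. CTL replicate 1 was far above the other 3 libraries, and the groups overlapped. The mean was 33.5 ± 14.2 CPM in I53A and 71.7 ± 44.9 CPM in CTL (SD, n = 2 each; log2 fold change -1.09 ± 0.39, SE; adjusted p = 0.157). Without CTL replicate 1 the log2 fold change was -0.25 (adjusted p = 0.891), and it was -1.62 both without CTL replicate 2 (adjusted p = 0.0464) and without I53A replicate 2 (adjusted p = 0.0109).

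Cxcl10, at bases 92346638 to 92348889 of chromosome 5 on the minus strand, shares 5.91% of its exon bases with Art3 on the other strand. The strand setting of the counting is not given, so reads of the pair may not be told apart. The RefSeq window on GRCm38.p6 at chr5:92348840-92349139 on the minus strand, shown because Cxcl10 is the member of second-highest level, holds the interferon element core at bases 38 to 47 and the kappaB motif, bound by NF-kB, at bases 92 to 101 and 147 to 157, all in capitals. The second kappaB place is made of overlapping matches on both strands.
Cxcl10: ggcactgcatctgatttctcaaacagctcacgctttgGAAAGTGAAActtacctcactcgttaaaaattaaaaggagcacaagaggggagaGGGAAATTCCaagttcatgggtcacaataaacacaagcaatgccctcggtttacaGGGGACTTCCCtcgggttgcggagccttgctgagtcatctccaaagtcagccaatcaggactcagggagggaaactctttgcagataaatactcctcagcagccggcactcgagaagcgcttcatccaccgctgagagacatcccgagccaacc

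Over the 41 members that have a RefSeq window, with 48 windows, 22.9% held kappaB, against 8.46% of all 32841 windows of the same length. The interferon element core was in 6.25% of the members' windows and 3.44% of all, and TATAAA in 25% and 13.6%. Windows rich in CpG made up 12.5% of the members' and 33.5% of all, counting an observed over expected CpG of at least 0.6 and a GC content of at least 50%. The neutrophil attractants Cxcl1, Cxcl2 and Cxcl3 and the T cell and dendritic cell attractant Ccl20 each held 1 kappaB place. So did the ligands Ccl1, Ccl9 and Ccl27a and the receptors Ccr1, Ccr3 and Ccr6. A match is a run of letters and says nothing of binding in these cells.

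Cxcl9, the second of these ligands, was not called. It stood at 1.21 and 0.705 CPM in I53A and at 2.56 and 0.928 CPM in CTL, with CTL replicate 1 again highest (log2 fold change -0.95 ± 0.69, SE; adjusted p = 0.546). Cxcl11 had 0 counts in every library, and Cxcr3 had 1 count, in I53A replicate 2. Irf1, an interferon-induced transcription factor named after its values were seen, stood at 29.5 and 19.4 CPM in I53A and at 59.5 and 29.2 CPM in CTL, and like Cxcl10 it was highest in CTL replicate 1 (adjusted p = 0.159).

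Cxcl1 and Cxcl2 attract neutrophils through Cxcr2 and lie side by side on chromosome 5. Cxcl2 stood at 21.6 and 28.4 CPM in I53A and at 12.4 and 17.2 CPM in CTL, higher in both I53A libraries (log2 fold change 0.77 ± 0.25, SE; adjusted p = 0.109), and passed the threshold without I53A replicate 1 (adjusted p = 0.0208) but not without I53A replicate 2 (0.241), CTL replicate 1 (0.628) or CTL replicate 2 (0.237). Cxcl1 stood at 17.5 and 15.4 CPM in I53A and at 16.8 and 16.8 CPM in CTL (log2 fold change -0.03 ± 0.23, SE; 95% interval -0.54 to 0.47; adjusted p = 0.967). The difference between their fold changes was not tested. Cxcl5, of the same group, had 11 counts in I53A replicate 2, 1 in CTL replicate 2 and 0 in the others. Cxcr2 had 7 counts in I53A replicate 2 only, Cxcr1 and Cxcl3 had none, and the neutrophil genes Ly6g and Mpo had 0 counts in every library. Of the other neutrophil genes, Csf3r had 3 and 26 counts in I53A and 15 and 2 counts in CTL (adjusted p = 0.868). S100a9 had 0 and 13 counts in I53A and 0 and 6 counts in CTL, and S100a8 had 3 counts in I53A replicate 2 only. The 10 neutrophil and mast cell markers, led by the mast cell genes Cpa3 and Kit, summed to 49.8 and 21.5 CPM in I53A and 21.1 and 38.2 CPM in CTL, with no call among 5 tested (none at an unadjusted p under 0.05, by DESeq2 or by limma-voom).

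Cxcl12, a stromal ligand, and its receptor Cxcr4, which retains leukocytes and progenitors in tissues, had fitted differences of opposite sign, and neither passed the test. Cxcr4 stood at 3.50 and 7.36 CPM in I53A and at 11 and 15.2 CPM in CTL, lower in both I53A libraries. Its mean was 5.43 ± 2.73 CPM in I53A and 13.1 ± 2.99 CPM in CTL (SD, n = 2 each; log2 fold change -1.21 ± 0.37, SE; adjusted p = 0.0877). It passed the threshold with DESeq2 (adjusted p = 0.0343), with no filter on low counts (0.0473) and without I53A replicate 2 (0.00783). It did not pass without I53A replicate 1 (log2 fold change -0.82, adjusted p = 0.152), CTL replicate 1 (0.234) or CTL replicate 2 (0.533). Cxcl12 stood at 8.97 and 7.10 CPM in I53A and at 3.39 and 5.57 CPM in CTL, higher in both I53A libraries (log2 fold change 0.84 ± 0.37, SE; adjusted p = 0.260). Ackr3, the atypical receptor that scavenges Cxcl12, stood at 126 and 77.8 CPM in I53A and at 63.6 and 87.2 CPM in CTL, with overlap (adjusted p = 0.386).

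Ccr4, a receptor of skin-homing T cells, binds Ccl17 and Ccl22. It stood at 5.03 and 1.72 CPM in I53A and at 10.8 and 5.43 CPM in CTL, and both I53A libraries lay below both CTL libraries. The mean was 3.37 ± 2.34 CPM in I53A and 8.10 ± 3.78 CPM in CTL (SD, n = 2 each; log2 fold change -1.37 ± 0.52, SE; adjusted p = 0.175). Without I53A replicate 1 it passed the threshold (log2 fold change -2.24, adjusted p = 0.0129). It did not pass without I53A replicate 2 (log2 fold change -0.71, adjusted p = 0.406), CTL replicate 1 (-0.75, adjusted p = 0.795) or CTL replicate 2 (-1.74, adjusted p = 0.245).

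The ligands of Ccr4 did not pass the low-count filter. Ccl17 had 10 counts in each I53A library and 3 and 2 counts in the CTL libraries. Ccl22 had 56 counts, or 2.47 CPM, in I53A replicate 2 and 0 counts in the other 3 libraries, where 3 counts would have been 0.191, 0.179 and 0.199 CPM; no fold is given. With no filter on low counts Ccl22 was called higher, on the counts of that 1 library. The 8 T cell markers found in the files summed to 70.5 and 49.5 CPM in I53A and 20.1 and 24.8 CPM in CTL. Most of that sum was Thy1, called higher at 66.6 and 46.9 CPM in I53A and 17.7 and 22.1 CPM in CTL (adjusted p = 0.0027) and a gene of fibroblasts as well. The defining genes Cd3d, Cd3g and Cd7 had 0 counts in every library, and Cd3e had 0 and 1 counts in I53A and 6 and 11 counts in CTL. Cd4, the co-receptor of helper T cells, stood at 3.18 and 2.12 CPM in I53A and at 1.61 and 0.530 CPM in CTL, higher in both I53A libraries (log2 fold change 1.23 ± 0.62, SE; adjusted p = 0.338). The part of T cells in the Ccr4 level was not tested.

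**Figure D3:**
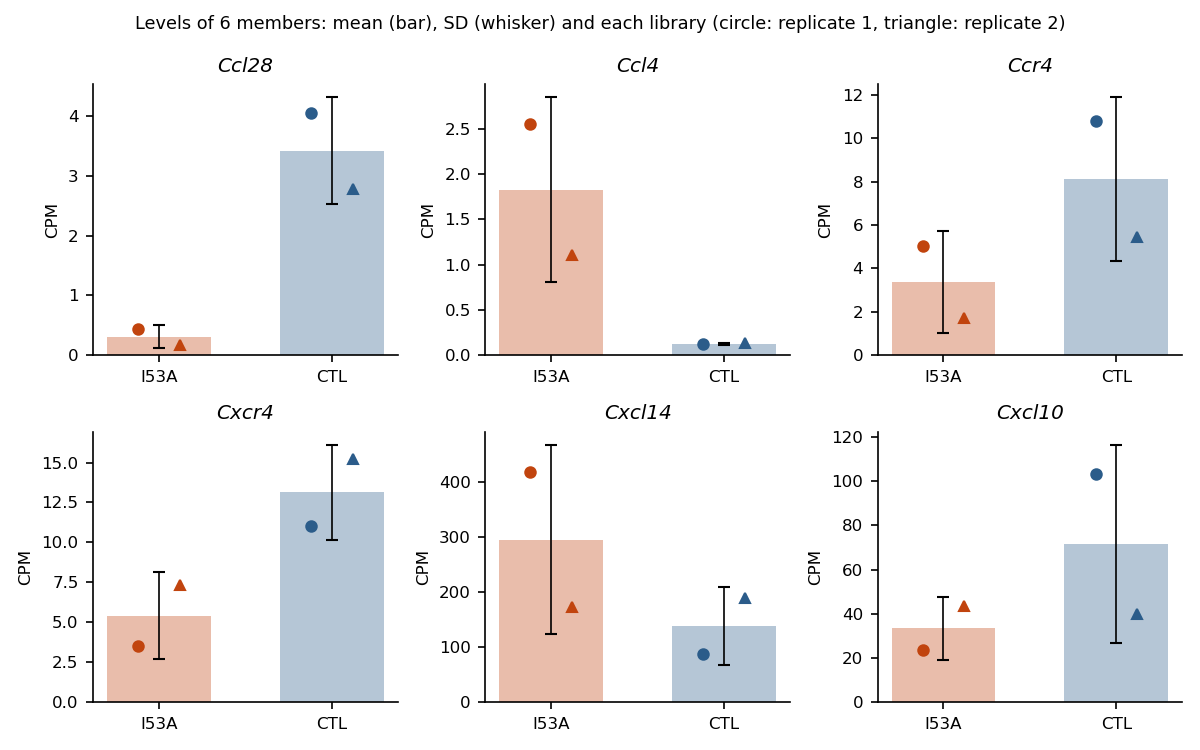
Levels in CPM of Ccl28, Ccl4, Ccr4, Cxcr4, Cxcl14 and Cxcl10, with bars for group means, whiskers for the SD (n = 2) and points for libraries (circle replicate 1, triangle replicate 2); the last 4 genes were chosen after their values were seen. The I53A and CTL libraries are apart for Ccl28, Ccl4, Ccr4 and Cxcr4 and overlap for Cxcl14 and Cxcl10.

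The 2 ligands that are made as membrane-bound proteins were among the better measured members. Cx3cl1, which tethers monocytes through Cx3cr1, stood at 23.3 and 32.0 CPM in I53A and at 21.8 and 17.5 CPM in CTL (log2 fold change 0.50 ± 0.23, SE; adjusted p = 0.292). Cx3cr1 stood at 4.14 and 4.72 CPM in I53A and at 5.12 and 3.18 CPM in CTL, with overlap and a 95% interval of -0.80 to 0.99 around a log2 fold change of 0.09 (adjusted p = 0.944). Cxcl16 stood at 29.6 and 41.2 CPM in I53A and at 25.9 and 29.2 CPM in CTL (log2 fold change 0.37 ± 0.21, SE; 95% interval -0.10 to 0.84; adjusted p = 0.417). It shares 18.3% of its exon bases with Zmynd15 on the other strand. Its receptor Cxcr6 stood at 2.42 CPM in each I53A library and at 1.79 and 3.31 CPM in CTL (log2 fold change -0.06 ± 0.50, SE; adjusted p = 0.976).

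Adam10 and Adam17, the proteases that shed both membrane-bound ligands, were read in the list of chemokine processing and presentation. None of its 10 tested genes was called (1 higher and 1 lower at an unadjusted p under 0.05, none by DESeq2 or limma-voom), and the median log2 fold change was -0.07. Adam17 stood at 59.0 and 66.6 CPM in I53A and at 86.7 and 86.1 CPM in CTL (adjusted p = 0.117). Sdc4, a heparan sulphate proteoglycan that binds chemokines and the most abundant gene of the list, stood at 405 and 354 CPM in I53A and at 341 and 318 CPM in CTL (adjusted p = 0.513).

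Ccl25, the ligand that guides T cells to thymus and gut, and its receptor Ccr9 were both measurable. Ccl25 stood at 4.2 and 2.07 CPM in I53A and at 1.79 and 2.32 CPM in CTL, with overlap (log2 fold change 0.55 ± 0.53, SE; adjusted p = 0.674). Ccr9 stood at 0.509 and 1.10 CPM in I53A and at 1.43 and 2.25 CPM in CTL, lower in both I53A libraries (log2 fold change -1.09 ± 0.64, SE; adjusted p = 0.431). Cxcr5, the B cell receptor for Cxcl13, stood at 2.67 and 1.59 CPM in I53A and at 3.04 and 2.12 CPM in CTL (adjusted p = 0.808), and shares 3.30% of its exon bases with Bcl9l. Ccl19, a ligand of the lymph node homing receptor Ccr7, had 22 and 9 counts in I53A and 3 and 4 counts in CTL and was not tested, while Ccr7 had 2 counts, both in I53A replicate 2.

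Ackr4, the atypical receptor that scavenges Ccl19, Ccl21 and Ccl25, fell to 51.2 and 39.8 CPM in I53A, against 84.8 and 103 CPM in CTL (log2 fold change -1.05 ± 0.18, SE; adjusted p = 0.00647). It was one of 7 tested genes among 9 atypical and related receptors. Pitpnm3, described in human as a receptor for CCL18, rose to 167 and 160 CPM in I53A, against 112 and 98.4 CPM in CTL (log2 fold change 0.63 ± 0.14, SE; adjusted p = 0.0252). Of the 7, 1 was thus called higher and 1 lower, where over all tested genes 5.68% were called higher and 1.04% lower. The other 5 did not pass the test, and the median log2 fold change of the list was -0.36. Neither call held without CTL replicate 1 (adjusted p = 0.0524 for Ackr4 and 0.167 for Pitpnm3) or without CTL replicate 2 (0.130 and 0.356), and that of Pitpnm3 also missed the threshold with GC and length offsets (0.0504).

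Of the 57 members 29 were not tested, and 12 of them had 0 counts in every library. These 12 were Ccl21a, Ccl21b, Ccl21c, Ccl26, Ccl27b, Cxcl3, Cxcl11, Cxcl15, Xcl1, Ccr1l1, Ccr6 and Cxcr1. The Ccl21 genes are near-identical copies, so a zero there may reflect how reads with several matches were counted, which was not tested. Of the 17 others 10 had at least 10 counts over the 4 libraries. Beside those given above, Ccl11 had 0 and 12 counts in I53A and 12 and 9 in CTL, Ccl24 had 5 and 11 in I53A and 4 and 0 in CTL, and Cxcl17, a mucosal ligand, had 2 and 3 in I53A and 2 and 3 in CTL. Ccl20, the keratinocyte ligand of Ccr6, had 2 and 1 counts in I53A and 1 and 7 in CTL. The members under 10 counts in all were Ccl1 with 2, Ccl8 with 1, Ccr7 with 2, Ccr8 with 6, Cxcl13 with 4, Cxcr2 with 7 and Cxcr3 with 1.

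Reads of 7 members came from I53A replicate 2 alone, which is the deepest library, and no member had reads in only 1 of the other libraries. Within the groups, 12 tested members differed by more than 2-fold between the I53A libraries and 5 between the CTL libraries. The CTL pair was the more even of the pairs.

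Downstream of the receptors, 5 of 32 tested genes of chemokine signalling passed the test, 4 higher and 1 lower, where over all tested genes 6.71% did, 5.68% higher and 1.04% lower. Grk3, a kinase that marks ligand-bound receptors for desensitization, rose to 22.3 and 18.5 CPM in I53A, against 2.02 and 2.85 CPM in CTL (log2 fold change 3.06 ± 0.33, SE; adjusted p = 0.000511). Arrb1, the arrestin that then uncouples the receptor, rose to 32.2 and 31.7 CPM in I53A, against 8.21 and 9.41 CPM in CTL (log2 fold change 1.86 ± 0.22, SE; adjusted p = 0.000916). Both were called under all 14 alternatives. The inhibitory G protein subunit Gnai1 fell to 268 and 263 CPM in I53A, against 468 and 514 CPM in CTL (log2 fold change -0.89 ± 0.13, SE; adjusted p = 0.00294). That call did not hold without CTL replicate 1 (adjusted p = 0.0539) or without CTL replicate 2 (0.0859).

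Prex1 and Elmo1, named after their values were seen, were the other genes of this list that rose. For Prex1, an exchange factor for Rac, the log2 fold change was 1.75 ± 0.25 (SE; adjusted p = 0.00232), and for Elmo1, a scaffold of a Rac exchange factor, it was 0.91 ± 0.20 (SE; adjusted p = 0.0212). Without CTL replicate 1 both missed the threshold (adjusted p = 0.0635 for Prex1 and 0.299 for Elmo1), and without CTL replicate 2 Elmo1 did (0.116). Rac1 (adjusted p = 0.188), Rac2 (0.944) and Dock2 (0.307), of the same list, did not pass the test. The median over the list was 0.19. These genes serve many receptors beside those of chemokines.

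The genes upstream of chemokine transcription held no call. Of 28 tested genes of NF-kB and the cytokines that activate it none passed the test (1 higher and 5 lower at an unadjusted p under 0.05, 1 lower by DESeq2, none by limma-voom), with a median log2 fold change of 0.05. Nfkb1, which encodes an NF-kB subunit and had the highest mean CPM of them over the 4 libraries, stood at 122 and 122 CPM in I53A and at 168 and 169 CPM in CTL, lower in both I53A libraries (log2 fold change -0.46 ± 0.13, SE; adjusted p = 0.0763). The inflammatory cytokine gene Tnf stood at 8.08 and 8.42 CPM in I53A and at 9.11 and 4.44 CPM in CTL, with overlap (adjusted p = 0.786).

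**Figure D4:**
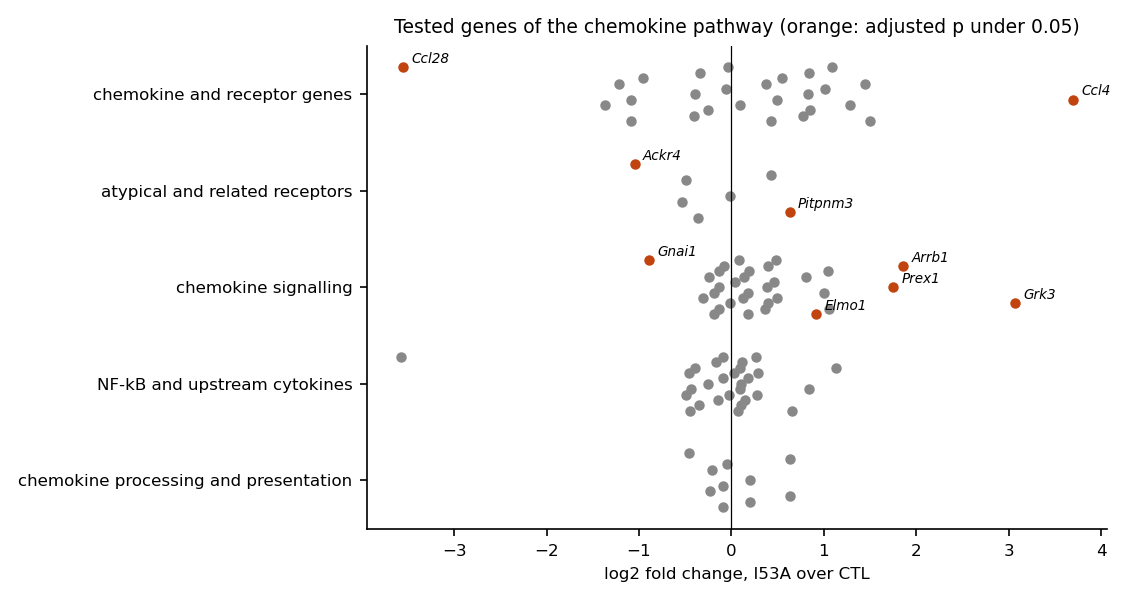
Log2 fold change of I53A over CTL for the tested genes of the chemokine and receptor set and of 4 pathway lists, with 1 member not drawn; orange points with names passed an adjusted p under 0.05, and height within a row carries no meaning. Calls lie in 3 of the 5 rows, with Grk3 at 3.06 farthest right outside the chemokine genes.

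The sorted cells carried the genes of their label, and other cell types were present in both groups. The 9 keratinocyte and gate markers, led by Krt5 and Krt14, summed to 23059 and 20055 CPM in I53A and 28628 and 31982 CPM in CTL. Of them Krt15 fell and 8 were not called (1 higher and 3 lower of the 9 at an unadjusted p under 0.05, 1 higher and 3 lower by DESeq2, 3 lower by limma-voom). Krt5 (adjusted p = 0.138) and Krt14 (0.0736) were lower in both I53A libraries, while Cdh1 (0.492) and Epcam (0.0635) were higher in both. The 7 suprabasal keratinocyte markers, led by Krt1 and Krt10, summed to 2228 and 3847 CPM in I53A and 3413 and 3994 CPM in CTL, with no call (1 higher and 3 lower at an unadjusted p under 0.05, 1 lower by DESeq2, none by limma-voom). The 9 hair follicle markers, led by Krt17 and Sox9, summed to 795 and 904 CPM in I53A and 510 and 502 CPM in CTL, and Lhx2 and Krt79 rose. The 10 endothelial and lymphatic markers, led by Lyve1 and Pdpn, summed to 83.9 and 89.9 CPM in I53A and 39.2 and 72.3 CPM in CTL. Of them Prox1 and Lyve1 rose and 8 were not called. Tek, not called, was also higher in both I53A libraries. Pecam1, Cdh5 and Kdr overlapped, with log2 fold changes of 0.12, 0.33 and 0.22, as did Vwf at -1.13. The part of these cells in the chemokine levels was not tested. Of the marker genes called, Lhx2 was the one that kept its call without CTL replicate 1, where Thy1, Fn1, Dcn, Prox1, Lyve1, Krt79, Krt15, Piezo2 and Myh4 had adjusted p between 0.0620 and 0.389.

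The remaining marker lists were low. Of the 7 Merkel cell markers, which summed to 27.0 and 24.2 CPM in I53A and 17.7 and 9.48 CPM in CTL, Piezo2 rose. Most of the I53A sum was Piezo2 alone, at 23.7 and 18.4 CPM in I53A and 8.39 and 6.96 CPM in CTL. Of the 4 Merkel cell markers tested, 2 were higher in both I53A libraries. Krt8 was lower in both (log2 fold change -2.40, adjusted p = 0.111), and Krt18 overlapped. The 7 melanocyte markers summed to 18.8 and 22.3 CPM in I53A and 17.4 and 19.6 CPM in CTL, with no call among 4 tested (1 higher at an unadjusted p under 0.05, none by DESeq2 or limma-voom). The 8 skeletal muscle markers summed to 1.72 and 4.63 CPM in I53A and 8.51 and 7.16 CPM in CTL, and Myh4 fell, with 0 counts in both I53A libraries and 57 and 21 in CTL. The erythroid markers were nearly all from Alas2, and the globin genes Hba-a1, Hba-a2 and Hbb-bs had 0 counts; the 1 tested gene was not called (none at an unadjusted p under 0.05, by DESeq2 or by limma-voom).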

How the data were processed

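Per the labels' protocols, total RNA of sorted newborn epidermal cells was reverse transcribed, amplified and sequenced as single reads. The authors deposited raw counts per gene symbol, whole numbers, 1 table per library. Per the submitters' processing notes, the tools included HTSeq 0.6.1, DESeq2 1.6.3, TopHat2 2.0.13 and Cufflinks 2.2.1, on mm10. Not given in the sources used here are the annotation, the strand setting and what each tool did.

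Of 24453 symbols, 4758 had 0 counts throughout and 14550 passed edgeR's filterByExpr (minimum count 10, minimum total 15). Libraries were scaled by TMM. I53A and CTL (2 libraries each, from the titles) were set against each other in edgeR 4.0.16 (R 4.3.3; glmQLFit, glmQLFTest; two-sided, Benjamini-Hochberg over all tested genes, adjusted p under 0.05). The procedure was tested on simulated data. CPM are counts over the scaled library size, and means carry the SD over 2 libraries. Levels per kb use the longest protein-coding transcript of GENCODE M21 on GRCm38, which matched 56 of the 57 members and 98% of the tested genes by symbol. The 95% intervals of pooled count ratios, and floors of 3 counts, cover counting error only. Replicates differed by more than sampling noise (chi-square per degree of freedom 35.2 for I53A and 11.2 for CTL), so each library counted as 1 sample.

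The members, the pathway and marker lists and the tests were chosen with earlier results of these data known. Named are Ring1, Rnf2 and every member (by counts alone where under 10). Of each pathway list up to 2 higher and 2 lower called genes are named, or else its most abundant gene. Of each marker list up to 3 called genes are named. The 2 genes of highest level are named for some marker lists only. Any other gene was named after its values were seen. Marker symbols Trdc, Trgc1, Tcrg-V5 and Hbb-bt, and the pathway symbols Grk2, Il36a, Il36b and Il36g, were not matched and are not analysed here. Protein sequences were not used here. One member enters the fits and counts but is not reported by name, and for a pathway list on interferon signalling no count is reported here. Alternatives were RLE and upper-quartile scaling, DESeq2 1.42.0, limma-voom (limma 3.58.1), no low-count filter, at least 1 CPM in 2 libraries, each library left out, a replicate block, GC and length offsets (loess, span 0.5) with and without that block and, chosen after seeing the data, the earlier quasi-likelihood fit.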

Additional observations from a re-analysis of the deposited data

How the results depend on the processing

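Ccl28 was called under 12 of the 14 alternatives and Ccl4 under 10. Over the 27 members reported one by one, 340 of 375 fold changes kept their direction and their side of the threshold, 6 calls were lost, 16 were gained and 13 values turned their sign, in 7 members and with no call on either side; 19 members were called under none. The log2 fold change of Cxcr6 turned to 0.011 with limma-voom, 0.022 with GC and length offsets and 0.0093 with offsets and block, and that of Cxcl1 to 0.067 with offsets and 0.070 with offsets and block. Over the libraries left out in turn it ran from -0.11 to 0.93 for Ccl3, -1.13 to 2.46 for Ccr1, -1.33 to 0.35 for Ccr10, -0.20 to 0.48 for Cx3cr1, -0.11 to 0.060 for Cxcl1, -0.70 to 0.039 for Cxcr5 and -0.45 to 0.44 for Cxcr6. Outside the libraries left out, the members called higher numbered 0 with limma-voom (6 at an unadjusted p under 0.05), 2 with no filter (Ccl22 and Ccl4) and 4 with offsets and block together. The members called lower numbered 2 with DESeq2, 2 with no filter, 3 with the replicate block and 4 with offsets and block. Over all genes the calls lower numbered 232 with DESeq2, 232 with the replicate block and 434 with offsets and block, where the calls higher numbered 1265. The members' median log2 fold change was 0.77 with no filter, where 45 members entered, and -0.030 at the 1 CPM filter, where 25 did. Leaving out each library in turn gave 258 to 1131 genes higher and 34 to 389 lower, 0 to 2 members higher and 0 to 3 lower, and a median of -0.0083 to 0.39. Without CTL replicate 1 no member was called (1 higher and 2 lower at an unadjusted p under 0.05); a group with 1 library was assumed to vary like the other. The deviations of same-numbered replicates had a correlation of 0.041. That single value over many genes cannot exclude that same-numbered replicates share something that affects some genes. The block added Ccr4 (adjusted p = 0.0462) and Cxcr4 (0.0188) and gave 1042 genes higher. Where the cause of a change is not in an alternative's own construction, the cause was not tested. With 2 libraries a group and most members under 10 CPM, a member without a call is not shown to be equal.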
